A study of Mus musculus with 6 samples.

Results

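The transcripts of the Janus kinases (Jak1, Jak2, Jak3 and Tyk2) and of the signal transducers STAT3, STAT4, STAT5A, STAT5B and STAT6 were compared between antiviral CD4+ T cells with high and with low surface CD25. The 9 genes were taken by name from the deposited table of 15445 genes, and all 9 had a row and passed the filter on low counts. The cells were transgenic T cells that share a receptor specificity, in mice of strain C57BL/6, sorted from the spleen on day 5 of infection with lymphocytic choriomeningitis virus (LCMV) by staining for CD4, Thy1.1 and CD25. There were 3 CD25-high and 3 CD25-low libraries, numbered 1 to 3 in each group. Both groups were transgenic cells from infected mice, so no naive or uninfected cells serve as a reference. The labels do not name the transgenic line, the age or number of the mice, or whether a library is a separate animal, so the spread behind each p-value is that between the libraries at hand and may be technical.

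Janus kinases sit on the inner tails of cytokine receptors. When a cytokine brings receptor chains together, the kinases phosphorylate each other and the receptor, STAT proteins dock there, are phosphorylated in turn, pair up and enter the nucleus as transcription factors. CD25 is the alpha chain of the interleukin-2 (IL-2) receptor, which signals mainly through JAK1, JAK3 and STAT5. In CD4+ T cells STAT5 is known for opposing the follicular helper fate, STAT3 for transmitting IL-6, IL-21 and IL-27, STAT4 for IL-12 and STAT6 for IL-4. RNA levels say nothing of phosphorylation, which is how these proteins are switched on.

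In the libraries as a whole, total counts ranged from 16787233 to 23567066, and mitochondrial genes took 32.0% to 38.3% of them. Most of that share came from the mitochondrial ribosomal RNA genes, which alone took 29.3% to 35.3% of the total counts. Il2ra, which encodes CD25, had 432 to 1536 CPM (a counts-per-million unit) in CD25-high and 20.7 to 35.7 CPM in CD25-low cells, as the sort labels say. All 8 T cell genes checked were present (Cd3e at 1182 to 1680 CPM, Cd4 at 474 to 788 CPM). On the group alone 0 of the 8 were called (edgeR adjusted p under 0.05), where 0.655% of all tested genes were. With the replicate block, explained below, 2 fell in CD25-high cells (Cd3d and Cd3g) and 0 rose. Of all tested genes 2.9% fell and 1.73% rose with it. Of the 8 log2 fold changes on the group alone, 2 were positive and 6 negative. The T cell list summed to 2759 to 2894 CPM in CD25-high and 2734 to 3697 CPM in CD25-low libraries. The libraries numbered 1 stood apart in both groups: with the group as a term, 931 of 12987 genes (7.17%) differed between them and the other libraries (edgeR adjusted p under 0.05; 3.19% higher and 3.98% lower), and 0 of the 9 JAK and STAT genes did. Values from an edgeR fit that also has the library number as a term, called the replicate block, stand beside those of the fit on the group alone. No label says that libraries of the same number belong together.

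All 9 genes had a lower fitted level in CD25-high cells, and for Jak1, Jak2, Jak3, Stat3 and Stat5a every CD25-high library lay below every CD25-low library. The differences were modest, 1.05-fold to 1.63-fold. None of the 9 passed an edgeR adjusted p of 0.05 in the fit on the group alone, in which 85 of 12987 genes (0.655%) were called, and DESeq2 (2.44% of all genes called) and limma voom, both without a block, called 0 of the 9 as well. In sorted bulk samples, fewer cells that express a gene and less RNA per cell cannot be told apart. At an unadjusted edgeR p under 0.05 there were 5 of 9, against 11.1% of all tested genes. Groups did not overlap for 5 of 9 genes, all lower in CD25-high cells, against 9.54% of tested genes that were lower without overlap, 7.41% that were higher and 16.9% in either direction. With the replicate block Jak1 alone passed (1 of 9, lower), where 4.63% of all genes were called, 2.9% lower and 1.73% higher. The median log2 fold change of the 9 was -0.49, and that of all tested genes 0.01. The median standard error (SE) was 0.21 for these genes and 0.37 for all genes, and the smallest log2 change called in the fit on the group alone was 1.05 in size, larger than the change of any of the 9. With the block it was 0.56, below the blocked changes of Jak1 and Stat5a. Counts of the 9 genes were at least 291 per library, so counting error was at most 5.86% of a value.

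**Figure D1:**
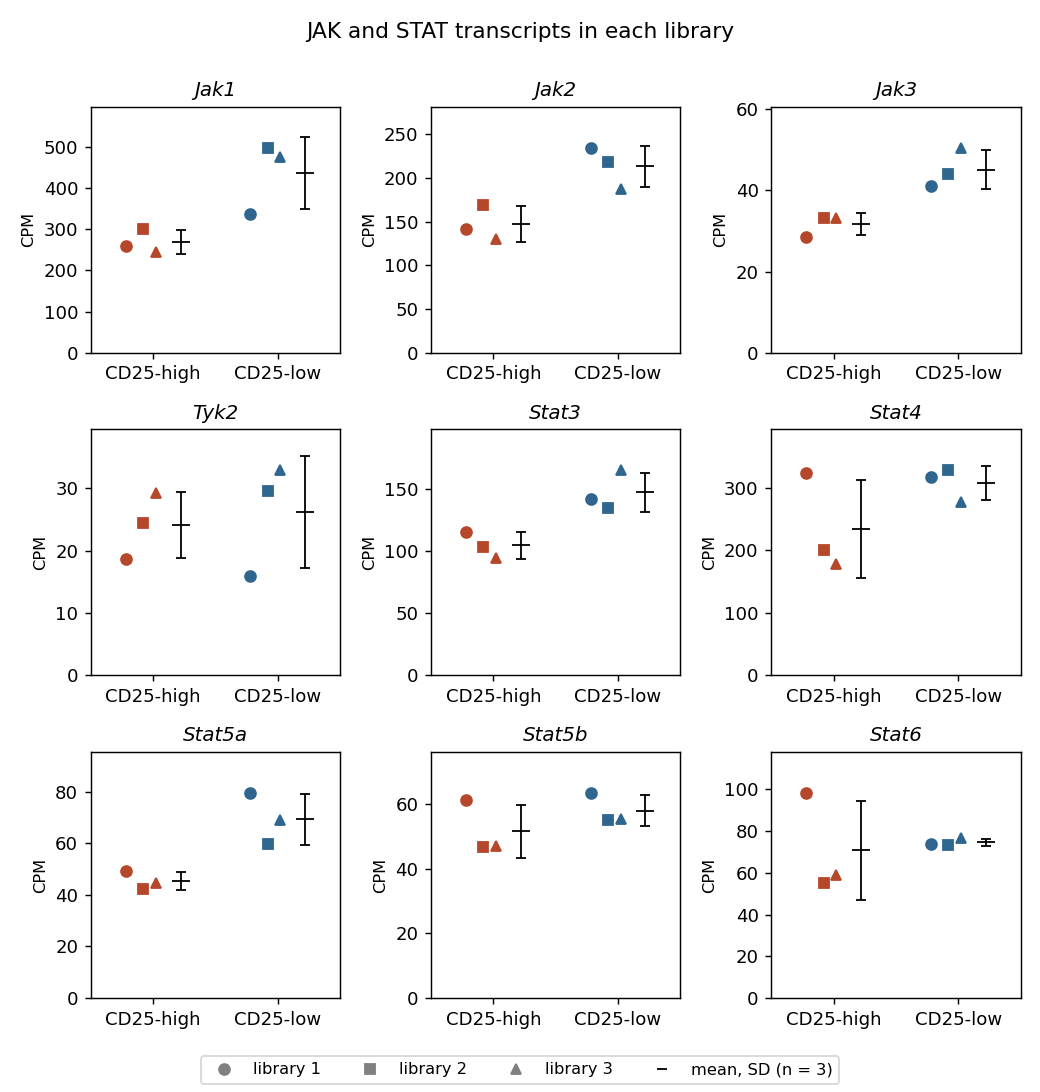
CPM (scaled by edgeR's TMM factors) of each of the 9 genes in the 3 CD25-high and 3 CD25-low libraries, with the mean and SD of each group. Symbols give the library number. Jak1, Jak2, Jak3, Stat3 and Stat5a show no overlap between groups, and CD25-high library 1 lies far above the other CD25-high libraries for Stat4 and Stat6.

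Jak1 encodes the kinase shared by most receptors of T cell cytokines, among them those of IL-2, IL-6 and the interferons. It lies on the minus strand at chr4:101152367-101265282 (GRCm38, the assembly also called mm10). Its level was 260, 301 and 245 CPM in CD25-high libraries 1, 2 and 3 against 338, 498 and 476 CPM in the CD25-low group, in the same order. The highest CD25-high library was below the lowest CD25-low library, which was library 1. The log2 fold change was -0.70 ± 0.21 (SE, 95% interval -1.16 to -0.25), with an edgeR adjusted p of 0.217, and -0.69 ± 0.16 (adjusted p 0.0225) with the replicate block. The call with the block was lost without both libraries numbered 3 (log2 fold change -0.55, adjusted p 0.158), and it held without those numbered 1 (0.0228) or 2 (0.0491). Without a block and without both libraries numbered 1, Jak1 passed as well (-0.84 ± 0.18, adjusted p 0.0257).

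Jak2 encodes the kinase of receptors such as those of IL-12, interferon gamma and growth hormone. It lies on the plus strand at chr19:29251828-29313080. Its level was 142, 170 and 130 CPM in CD25-high libraries 1, 2 and 3 against 235, 218 and 188 CPM in the CD25-low group, in the same order. The groups did not overlap, and the gap between the nearest libraries (CD25-high 2 and CD25-low 3) was smaller than the SD of either group. Its log2 difference came to -0.54 ± 0.19 (95% interval -0.97 to -0.11; edgeR adjusted p 0.332, with the block 0.0671). Jak2 passed only in fits with the block by other tools, DESeq2 (adjusted p 0.0251, in a fit that called 6.89% of all genes) and limma voom (0.0435).

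Jak3 encodes the kinase that binds the common gamma chain and so serves IL-2, IL-7, IL-15 and IL-21. It lies on the plus strand at chr8:71676296-71690575. It had 28.6, 33.2 and 33.2 CPM in the CD25-high group against 41.0, 43.9 and 50.5 CPM in the CD25-low group, with no overlap. Jak3 was lower by a log2 fold change of -0.51 ± 0.21 (95% interval -0.99 to -0.03; edgeR adjusted p 0.417, with the block 0.189), which did not pass. Jak3 shares 404 exonic bases with Insl3 on its own strand, 7.55% of its exonic length. The Insl3 count was 12.7% to 25.1% of the Jak3 count. How reads of the shared bases were assigned is not given in the sources used here.

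Tyk2, on the minus strand at chr9:21104068-21131243, encodes the kinase that works with JAK2 at the IL-12 receptor and with JAK1 at the type I interferon receptor. It had 18.7, 24.4 and 29.2 CPM in the CD25-high group against 15.9, 29.6 and 32.8 CPM in the CD25-low group. The groups overlapped widely, and library 1 was the lowest of each group. The log2 fold change was -0.12 ± 0.32, and its 95% interval of -0.82 to 0.59 spans changes in both directions. With the group as a term, the libraries numbered 1 differed from the others by -0.74 ± 0.25 on the log2 scale (edgeR adjusted p 0.0983). The antisense gene 1700084C06Rik shares 554 exonic bases with Tyk2 and had 3.02% to 11.5% of its count, and without a stated strand setting the reads of the shared bases cannot be told apart.

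The start regions of the genes with no overlap between groups are shown so that they can be set side by side, and no joint change of these genes was tested. For each, the letters run 5′ to 3′ on the gene's strand, from RefSeq (GRCm38.p6), and stop before the earliest start that RefSeq or GENCODE gives the gene. They span chr4:101265283-101265473 (minus strand, Jak1), chr19:29251553-29251802 (plus strand, Jak2), chr8:71676133-71676295 (plus strand, Jak3) and chr11:100939541-100939790 (minus strand, Stat3). Capitals mark the GC box GGGCGG and the CCAAT box, each searched on both strands. Stat5a is not shown, since its RefSeq windows lie inside the gene as GENCODE draws it.
Jak1: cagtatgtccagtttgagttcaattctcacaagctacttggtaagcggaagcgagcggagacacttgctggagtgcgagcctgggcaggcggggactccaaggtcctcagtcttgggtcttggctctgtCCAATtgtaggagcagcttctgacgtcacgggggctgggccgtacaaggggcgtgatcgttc
Jak2: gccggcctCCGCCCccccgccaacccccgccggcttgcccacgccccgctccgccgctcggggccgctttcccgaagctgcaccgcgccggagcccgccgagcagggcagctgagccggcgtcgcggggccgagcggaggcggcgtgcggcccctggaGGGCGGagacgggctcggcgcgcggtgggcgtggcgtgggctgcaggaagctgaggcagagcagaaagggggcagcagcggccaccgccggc
Jak3: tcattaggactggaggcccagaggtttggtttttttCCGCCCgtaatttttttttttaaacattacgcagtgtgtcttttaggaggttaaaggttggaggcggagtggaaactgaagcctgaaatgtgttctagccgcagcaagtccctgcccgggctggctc
Stat3: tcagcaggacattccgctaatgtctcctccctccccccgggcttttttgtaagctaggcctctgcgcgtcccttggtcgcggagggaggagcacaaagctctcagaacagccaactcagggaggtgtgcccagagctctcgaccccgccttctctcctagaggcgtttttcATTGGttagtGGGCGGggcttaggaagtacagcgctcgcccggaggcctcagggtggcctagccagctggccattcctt
Jak2 held GGGCGG at 2 places, Jak3 at 1 and Stat3 at 1, and Jak1 and Stat3 held CCAAT at 1 place each. Of all 32851 promoter windows cut to the same length, GGGCGG was found in 32.7% at 250 bases (Jak2 and Stat3) and 18.4% at 163 bases (Jak3), and CCAAT in 33.8% at 250 bases and 26.9% at 191 bases (Jak1). The palindromic motif TTCNNNGAA, to which STAT proteins are known to bind, was found in none of the 12 RefSeq windows of 300 bases that belong to the 9 genes, and in 8.3% of all windows of that length. That says only that these letters are not in these windows.

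Stat5a and Stat5b encode the near-identical transcription factors that carry most of the IL-2 signal. They lie 8626 bases apart on chromosome 11, Stat5b on the minus strand at chr11:100780731-100850724 and Stat5a on the plus strand at chr11:100859351-100885169. The level of Stat5a was 49.3, 42.3 and 44.8 CPM in CD25-high libraries 1, 2 and 3 against 79.6, 59.7 and 69.1 CPM in the CD25-low group, in the same order. All CD25-high libraries were below all CD25-low libraries. Stat5a had a log2 fold change of -0.61 ± 0.21 (95% interval -1.07 to -0.15; edgeR adjusted p 0.308, with the block 0.0807). It passed only with DESeq2 and the block (0.0344).

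Stat5b had 61.2, 46.7 and 47.0 CPM in the CD25-high group against 63.5, 55.1 and 55.3 CPM in the CD25-low group. Groups overlapped, through CD25-high library 1. Its log2 fold change was -0.17 ± 0.21, and the 95% interval of -0.63 to 0.30 holds both no change and the change of Stat5a (edgeR adjusted p 0.834). With 1 library left out it ranged from -0.31 without CD25-high library 1 to -0.09 without CD25-high library 2.

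The balance of both STAT5 genes within a library does not depend on how libraries are scaled to each other. Exonic length took in every base that lies in an exon of any annotated transcript of the gene. Per exonic length, Stat5a reached 0.63, 0.70 and 0.74 of the Stat5b level in CD25-high libraries 1, 2 and 3, and 0.97, 0.84 and 0.97 of it in CD25-low libraries. On raw counts the ratio was 0.81, 0.91 and 0.95 in CD25-high and 1.25, 1.08 and 1.25 in CD25-low libraries. Which STAT5 gene stood higher in CD25-low libraries thus depends on the length used. The ratio was lower in every CD25-high library than in any CD25-low library. The log2 ratio per exonic length averaged -0.54 ± 0.13 in CD25-high and -0.11 ± 0.12 in CD25-low libraries (SD, n = 3 each). The difference was -0.43. Within each library number the CD25-high value was lower, by -0.64, -0.26 and -0.39. A two-sided exact permutation test over the libraries gave p = 0.1 (adjusted over 3 ratios 0.3), the smallest that 3 against 3 can give. Of the 50-base stretches in Stat5b transcripts, 11% also occur in Stat5a, and 8.21% of those of Stat5a occur in Stat5b, and how reads from such stretches were assigned is not given in the sources used here.

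**Figure D2:**
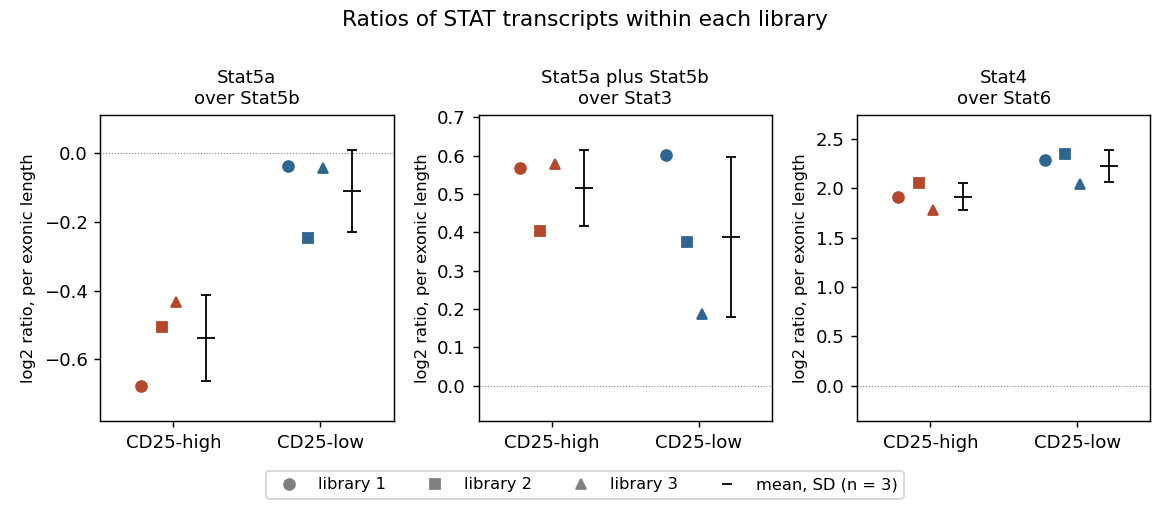
Log2 ratios of STAT transcripts within each library, per exonic length, with the mean and SD of each group. The groups are apart for Stat5a over Stat5b (-0.68 to -0.43 in CD25-high and -0.25 to -0.04 in CD25-low libraries) and overlap for the other ratios.

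Stat3 encodes the factor downstream of IL-6, IL-21 and IL-27, which is known for favouring follicular helper cells. It lies beside Stat5a, tail to tail, on the minus strand at chr11:100885098-100939540, and the genes share 72 exonic bases on opposite strands. Stat3 had 115, 104 and 94.3 CPM in the CD25-high group against 142, 135 and 165 CPM in the CD25-low group, with no overlap. For Stat3 the fit gave -0.49 ± 0.19 on the log2 scale (95% interval -0.91 to -0.07; edgeR adjusted p 0.364, with the block 0.118).

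The summed level of Stat5a and Stat5b over that of Stat3, per exonic length, was 1.48, 1.32 and 1.49 in CD25-high and 1.52, 1.30 and 1.14 in CD25-low libraries. These values overlapped (two-sided exact permutation p = 0.5, adjusted over 3 ratios 0.5), so no difference in the balance of STAT5 to STAT3 transcripts was seen beyond the spread between libraries.

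Stat4, on the plus strand at chr1:51987148-52107189, encodes the factor that IL-12 activates in Th1 cells. It had 325, 201 and 178 CPM in the CD25-high group against 318, 328 and 278 CPM in the CD25-low group. CD25-high library 1 lay among the CD25-low libraries, while CD25-high libraries 2 and 3 lay below all of them. The log2 fold change was -0.39 ± 0.24 (95% interval -0.93 to 0.14), with an edgeR adjusted p of 0.6. The block gave -0.44 ± 0.17 (adjusted p 0.185). With the block and without both libraries numbered 1 the value was -0.68 ± 0.15 (adjusted p 0.0448), and without both numbered 2 or 3 it was -0.31 or -0.33 (0.646 and 0.522). Stat4 thus passed in 1 of these fits. With 1 library left out it ranged from -0.70 without CD25-high library 1 (adjusted p 0.173) to -0.22 without CD25-high library 3 (0.879). Stat4 shares 1033 exonic bases on its own strand with the transcript Gm28177, which is 26.7% of the exonic length of Stat4. Gm28177 has no row among the deposited counts, and how reads of the shared bases were assigned is not given in the sources used here.

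Stat6, on the plus strand at chr10:127642986-127660957, encodes the factor that IL-4 activates in Th2 cells. It had 98.2, 55.1 and 58.8 CPM in the CD25-high group against 73.8, 73.4 and 76.5 CPM in the CD25-low group. CD25-high library 1 was the highest of all 6 and the other CD25-high libraries were the lowest, so the groups overlapped. The log2 fold change was -0.08 ± 0.25, with a 95% interval of -0.63 to 0.47. Without CD25-high library 1 it was -0.39 (edgeR adjusted p 0.564). The ratio of Stat4 to Stat6 per exonic length was 3.76, 4.15 and 3.44 in CD25-high and 4.90, 5.08 and 4.13 in CD25-low libraries. The groups overlapped by a narrow margin, and between libraries of the same number the log2 ratio was lower in CD25-high cells by similar amounts (-0.38, -0.29 and -0.26 for numbers 1, 2 and 3). In a two-sided exact permutation test the p was 0.2 (adjusted over 3 ratios 0.3).

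**Figure D3:**
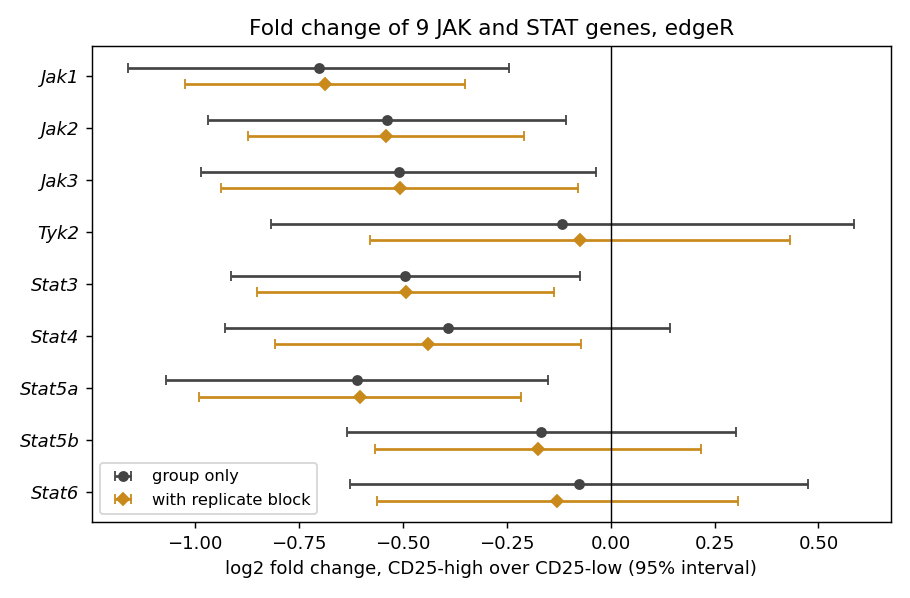
Log2 fold change of each of the 9 genes, CD25-high over CD25-low, with its 95% interval, from the edgeR fit on the group alone (circles) and from the fit with the replicate block (diamonds). All points lie below 0, and Jak1, at -0.70 and -0.69, lies lowest in both fits.

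Levels were compared between genes per length, as CPM per kilobase of exonic sequence from all annotated transcripts, and another choice of length could give another order. In that unit Stat4 was the most abundant in every library (46.0 to 84.8), followed by Jak1 (33.9 to 68.9), Jak2 (25.8 to 46.6), Stat6 (12.5 to 22.3), Stat3 (9.90 to 17.3) and Stat5b (8.43 to 11.5). Stat5a (5.93 to 11.2), Jak3 (5.35 to 9.44) and Tyk2 (2.32 to 4.78) were the least abundant. The order was identical in 5 libraries. In CD25-high library 2 Jak3 stood above Stat5a, and the CD25-high means of this pair, 6.38 ± 0.50 for Stat5a and 5.92 ± 0.50 for Jak3 (SD, n = 3 each), lay within a standard deviation of each other. Jak1 and Jak2 were nearly equal in CD25-low library 1 (46.7 and 46.6), as were Stat6 and Stat3 in CD25-low library 3 (17.4 and 17.3). Among all tested genes, the mean level per length of Stat4 stood at the 97.5th percentile, that of Jak1 at the 96.0th, that of Stat5a at the 67.5th and that of Tyk2 at the 47.0th.

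Of the 4 kinases together, per length, Jak1 made up 45.2% to 56.1%, Jak2 31.8% to 45.1%, Jak3 6.58% to 8.85% and Tyk2 2.24% to 6.06%. The shares of all 4 overlapped between the groups. Between libraries of the same number, the Tyk2 share was higher in CD25-high cells for all 3 numbers, by 1.53, 0.731 and 1.98 percentage points. The Jak3 share differed by -0.000556, 0.71 and 0.815 points, and the shares of Jak1 and Jak2 changed direction. A share also depends on the other kinases. The Tyk2 level itself was lower in CD25-high cells for numbers 2 and 3 (24.4 against 29.6 and 29.2 against 32.8 CPM). For number 1 it was higher (18.7 against 15.9 CPM). For Jak1 the mean share was 49.0% ± 0.77 in CD25-high and 52.2% ± 6.05 in CD25-low libraries (SD, n = 3 each), and CD25-low library 1, at 45.2%, was the lowest of all.

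The genes whose pattern over the 6 libraries lay nearest were found for Jak1, Stat5a and Jak2, which had the smallest p-values, among 8866 other genes with a mean of at least 5 CPM. The measure was the root mean square difference of centred log2 CPM. Nearest to Jak1 were Zhx3 (0.07), Cnp (0.08) and Pnrc1 (0.10), nearest to Stat5a were Mbtps1 (0.08), Dtx3l (0.09) and Fam118b (0.09), and nearest to Jak2 were Fbxl17 (0.04), Snx4 (0.06) and Gdi2 (0.07). The likeness rests on only 6 libraries, and several of these genes share exonic bases with a neighbour, the most being Gdi2 with Fam208b (1184 bases).

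The receptors that use these kinases changed in both directions. Of 7 tested genes of receptors with the common gamma chain or their partners, Il2ra rose, as the sort requires, and 6 did not pass. With the replicate block Il2rb rose as well. Of all tested genes, 0.154% were called higher and 0.501% lower on the group alone, and 1.73% and 2.9% with the block. Il2rb, the beta chain on which STAT5 docks, had 448, 540 and 551 CPM in the CD25-high group against 177, 244 and 372 CPM in the CD25-low group (0.96 ± 0.26 on the log2 scale; edgeR adjusted p 0.184, with the block 0.00327). It was named after its values were seen. This list had a median of 0.30 on the log2 scale. Of 11 tested genes of gp130, IL-12, IL-10 and interferon receptors, 1 rose and 2 fell, and 8 did not pass, with a median of -0.74.

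Il12rb2, the IL-12 receptor chain through which STAT4 is activated, rose, with a log2 fold change of 1.27 ± 0.24 (edgeR adjusted p 0.0443). It shares 1519 exonic bases with Serbp1 on the opposite strand. Il6st, which encodes gp130, the chain that IL-6 and IL-27 use to activate STAT3, fell from 133, 102 and 68.0 CPM in CD25-low to 36.6, 19.5 and 22.4 CPM in CD25-high libraries (-1.95 ± 0.32, adjusted p 0.0257). Ifnar2, a chain of the type I interferon receptor, fell as well (-1.50 ± 0.25, adjusted p 0.0257), and shares 315 exonic bases with Gm21970 on its own strand. With the block 1 gene of this list rose and 3 fell, against 1.73% and 2.9% of all tested genes. With 1 library left out 0 or 1 rose and 0 to 2 fell. Il12rb2 and Ifnar2 were called only without CD25-high library 1 (adjusted p in the other fits 0.0991 to 0.177 and 0.0549 to 0.196), and Il6st only when CD25-high 1 or CD25-low 3 was left out (0.0729 to 0.193 in the others).

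Stat2, which encodes a STAT of type I interferon signalling, fell. It was at 28.5, 24.3 and 21.7 CPM in the CD25-high group against 70.5, 61.7 and 54.3 CPM in the CD25-low group, with no overlap (-1.32 ± 0.22 on the log2 scale, edgeR adjusted p 0.0273). Of the 6 fits with 1 library left out, the call held in 1, without CD25-high library 1, and the adjusted p was 0.0857 to 0.216 in the other 5, with log2 fold changes of -1.44 to -1.22 over all 6.

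Among 19 tested feedback inhibitors and phosphatases of the pathway, 1 rose and 1 fell, and 17 did not pass. On the group alone 0.154% of all tested genes rose and 0.501% fell. With 1 library left out 0 or 1 rose and 0 or 1 fell. In the blocked fit there were 2 rises and 4 falls, where 1.73% of all tested genes rose and 2.9% fell. The list had a median log2 fold change of -0.31. Socs2, a feedback inhibitor that STAT5 induces, rose from at most 1.41 CPM in CD25-low to 9.01, 9.53 and 10.8 CPM in CD25-high libraries (3.57 ± 0.54, edgeR adjusted p 0.0189). Sh2b3, which encodes LNK, an adaptor that restrains JAK2, fell from 24.4, 12.5 and 26.1 CPM to 5.27, 2.98 and 3.27 CPM (-2.45 ± 0.40, adjusted p 0.0257). Socs2 was not called when CD25-high 2, CD25-high 3 or CD25-low 2 was left out (adjusted p 0.0599 to 0.121), and Sh2b3 was called only when CD25-high 1 or CD25-low 2 was left out and had 0.0747 to 0.165 in the other fits. Ptprc, which encodes CD45, a phosphatase known to act on JAK kinases, had 1427, 1848 and 1336 CPM in the CD25-high group against 3627, 3469 and 2582 CPM in the CD25-low group. It differed by -1.07 ± 0.21 on the log2 scale (adjusted p 0.0566, with the block 0.00053), and it was named after its values were seen.

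Genes known as targets of each STAT were described beside the STAT itself. These lists share some genes with each other and with the lists above, so counts of different lists are not separate results. Of 18 tested STAT5 targets 4 rose, 0 fell and 14 did not pass, and with the block 9 rose and 0 fell. Of all tested genes, 0.154% were called higher and 0.501% lower, and with the block 1.73% and 2.9%. At an unadjusted edgeR p under 0.05, 8 targets were higher and 3 lower, against 11.1% of all tested genes in either direction. Of the 18 log2 fold changes, 12 were positive and 6 negative. With 1 library left out, 1 to 4 rose and 0 or 1 fell. Their median log2 fold change was 1.15, while Stat5a and Stat5b had -0.61 and -0.17. Il2ra, the cyclin gene Ccnd2 (1.74 ± 0.24, edgeR adjusted p 0.0104) and Prdm1, which encodes the repressor Blimp-1 (1.69 ± 0.25, adjusted p 0.0159), had the smallest p-values, and Socs2 was the other that rose. Il2ra was called in all 6 fits with 1 library left out, Ccnd2 was not called when CD25-high 3, CD25-low 2 or CD25-low 3 was left out (adjusted p 0.0676 to 0.0917), and Prdm1 was not called when CD25-high 2, CD25-high 3 or CD25-low 2 was left out (0.0529 to 0.121). Il2ra is the sort marker, and the list was drawn up with results of these libraries known, so its direction is no independent evidence.

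Of 13 tested STAT3 targets 0 passed in the edgeR fit on the group alone, 2 were lower at an unadjusted p under 0.05, and DESeq2 and limma voom each called 1 fall. Of all tested genes, 11.1% had an unadjusted edgeR p under 0.05. In the blocked edgeR fit there were 1 rise and 2 falls, against 1.73% and 2.9% of all tested genes. The rise was Myc, which is also among the STAT5 targets that rose with the block. Il21 was a fall on both the STAT3 and the STAT4 list. Myc and Il21 were named after their values were seen. The STAT3 list had a median of -0.27 on the log2 scale, and Stat3 itself -0.49. Bcl6, the repressor that defines follicular helper cells, had 15.1, 2.02 and 1.07 CPM in the CD25-high group against 174, 67.3 and 71.3 CPM in the CD25-low group (-4.11 ± 0.85, edgeR adjusted p 0.0715, with the block 2.03e-05). Il23r, a chain of the IL-23 receptor, was at 0 to 0.53 CPM in CD25-high and 0.21 to 2.98 CPM in CD25-low cells, too few counts for a firm value. Of 10 tested STAT4 targets Il12rb2 rose and 9 did not pass (2 rises and 1 fall with the block), with a median of 0.45. In a fit on group and library 1 status, 5 of these 10 genes were lower and 1 higher in the libraries numbered 1 (edgeR adjusted p under 0.05). Of all tested genes, 3.98% were lower and 3.19% higher in that fit. The median log2 difference of the 10 was -0.79, and Stat4 differed by 0.44 (adjusted p 0.174). Of 5 tested STAT6 targets 0 passed in either edgeR fit, with DESeq2 or with limma voom, 1 was higher at an unadjusted p under 0.05, and the median was -0.20, beside -0.08 for Stat6. Ccr4 and Gfi1 had the smallest p-values of these (edgeR adjusted p 0.442 and 0.792).

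**Figure D4:**
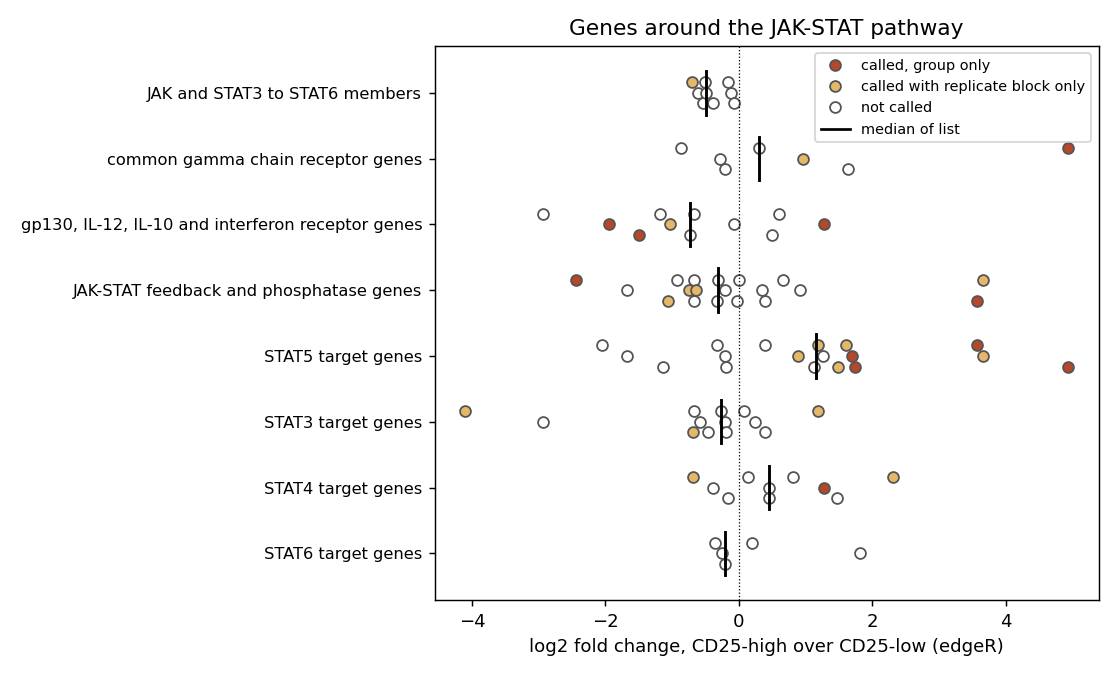
Log2 fold change (CD25-high over CD25-low, edgeR) of each tested gene of the JAK and STAT genes and of 7 lists around them, with the median of each list as a bar. Fill shows whether a gene was called on the group alone, only with the replicate block, or in neither fit. The 9 JAK and STAT genes span a narrow range below 0, and the STAT5 targets have the highest median, 1.15.

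Among markers of other cell types, Ighm was the most abundant, and Itgam reached 77.2 and 71.6 CPM in libraries 2 and 3 of the CD25-high group and 5.03 to 32.1 CPM in the other 4. Of 7 B cell genes 3 had a row, and these summed to 278 to 440 CPM in CD25-high and 764 to 893 CPM in CD25-low libraries. Nearly all of that was Ighm, which fell in CD25-high cells (-1.31 ± 0.22, edgeR adjusted p 0.0273; with 1 library left out, called only without CD25-high library 1, and 0.0729 to 0.231 in the other 5 fits), while Cd79b, which B cells need for their receptor, was at most 1.41 CPM in any library and Ebf1 at most 0.70. The myeloid and dendritic list summed to 32.2 to 105 CPM in CD25-high and 23.6 to 56.0 CPM in CD25-low libraries, led by Itgam and Cst3. Itgam rose with the replicate block (1.57 ± 0.23 on the log2 scale, edgeR adjusted p 0.0013) and did not pass on the group alone (0.433). It was the only 1 of the 5 tested genes called with the block, where 1.73% of all tested genes rose. On the group alone 3 of the 5 log2 fold changes were positive and 2 negative, that of Cst3 being -0.09. Lyz2 was at most 0.72 CPM. The part of these markers in the results above was not tested. Cd8b1 was at most 5.33 CPM, and the natural killer cell list summed to at most 4.59 CPM, led by Eomes and Klrb1c. The only gene of 5 from red cells and platelets with a row, Ppbp, was at most 0.77 CPM.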

How the data were processed

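RNA of the sorted T cells was made into libraries with a NuGEN kit (Ovation RNA-Seq System v2), per the labels' protocols. The authors deposited raw counts, whole numbers of reads per Ensembl gene in each of 6 libraries. Per the submitters' processing notes, Novoalign and DESeq2 were among the tools and mm10 and hg19 among the builds, without roles or versions. No source used here states the counting tool, its strand setting or its treatment of reads with several matches. The smallest row total is 10. GENCODE mouse release 21 (the M series, GRCm38) named 15169 of 15445 genes and gave exonic lengths.

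From these counts, edgeR 4.0.16 (R 4.3.3) fitted the group as the only term, with TMM factors, and genes were tested by quasi-likelihood F. The filterByExpr defaults (counts of 10, totals of 15) kept 12987 genes, over which p-values were adjusted by Benjamini-Hochberg, with 0.05 as the limit. SE was taken as |log2 fold change| / sqrt(F), with 95% intervals from the t distribution. Folds are CD25-high over CD25-low. The fit was tested on simulated data.

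Over the 2000 most variable genes, deviations from the group means correlated at 0.29, 0.15 and 0.13 for libraries with the same number 1, 2 and 3, all above the limit of 0.1, and at -0.21 to 0.11 for other pairs. The highest of these (CD25-high 2 with CD25-low 3) passed the limit too. The replicate block rests on this check and on no label. Since the libraries numbered 1 stood apart in both groups, centring within a group moves numbers 2 and 3 the same way. CD25-high 3 with CD25-low 2 gave 0.06. The check therefore cannot tell pairing of number 2 with 2 and 3 with 3 from that shift. Libraries of a group differed by more than sampling noise (chi-square of 26.0 to 91.6 for each degree of freedom).

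The 9 genes and the lists around them were chosen with earlier results of these data known. Named are the 9 genes, from each list up to 3 called genes in either direction (if none was called, the 2 of smallest p), the 2 most abundant markers of each other cell type, and the 3 nearest patterns of 3 genes. Alternatives were DESeq2 1.42.0, limma 3.58.1 voom, other factors and filters, removal of abundant genes, the block, and libraries left out. The result of 1 list is not reported here. The exact permutation tests of the 3 STAT ratios and the differences within library numbers were added after seeing the data.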

Additional observations from a re-analysis of the deposited data

How the results depend on the processing

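Of the 9 genes, 0 were called on the group alone, and 0 with DESeq2, limma voom, RLE factors, upper-quartile factors, plain library sizes, unfiltered genes, a stricter filter (mean count 10, and CPM 1 in 3 libraries), counts without the top 50 and mitochondrial genes, or any single library left out. With the replicate block 1 was called (Jak1), with the block and without both libraries numbered 1, 2 or 3 there were 2, 1 and 0, and without both numbered 1 and without a block 1. Limma voom and DESeq2 with the block, chosen after seeing the data, called 2 and 3. Calls over all genes rose from 85 to 376 with DESeq2, 601 with the block, 461, 486 and 536 with the block and without both libraries numbered 1, 2 or 3, and 380 without both numbered 1 and without a block. DESeq2 and limma voom with the block called 1064 and 754. With 1 library left out, calls ranged from 22 to 130: 130, 38 and 23 without CD25-high library 1, 2 or 3, and 49, 22 and 33 without CD25-low library 1, 2 or 3. The log2 fold changes of Jak1 (-0.86 to -0.55), Jak2, Jak3, Stat3, Stat4, Stat5a and Stat5b were negative in all 21 alternatives. With 1 library left out, Tyk2 ranged from -0.372 to 0.0824, above 0 without CD25-high library 1 (0.0376) and without CD25-low library 3, and Stat6 ranged from -0.388 to 0.0843, above 0 without CD25-high library 2 and without CD25-high library 3 (0.0524). With the block, Tyk2 turned to 0.0196 without both libraries numbered 2, and Stat6 to 0.00892 and 0.00363 without both numbered 2 or 3. The causes of these changes were not tested. The difference in the log2 ratio of Stat5a to Stat5b, -0.43, is the same on raw counts by arithmetic. Each gene is divided by a fixed length that cancels between groups, so this is no check of the result. The smallest change called was 1.05 (log2) on the group alone and 0.56 with the block.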
